A study of Mus musculus with 11 samples.

Results

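Cycling progenitors with Dlx transcripts, the dividing cells of the ganglionic eminence (GE), were a small population in 2 single-cell RNA libraries made from mouse dorsal telencephalon at E14.5, the middle of cortical neurogenesis. They were selected on measured values: a barcode was kept if it held at least 1000 detected genes and at most 10% mitochondrial UMIs (unique molecular identifiers, each counting 1 captured RNA molecule), and it was a member if it had at least 3 UMIs of Dlx1, Dlx2, Dlx5 and Dlx6os1 together, at least 3 of Top2a and Mki67 together, no UMI of Eomes and at most 3 of Neurod2 and Neurod6 together. Of 16335 kept barcodes, among 17948 in the files, 251 met the rule: 118 in the WT library and 133 in the cKO library.

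The GE is the ventral germinal zone of the embryonic telencephalon, and its medial, lateral and caudal parts (MGE, LGE and CGE) give rise to GABAergic neurons of the striatum, olfactory bulb and cortex. Dlx1 and Dlx2 encode homeodomain factors that switch on in its progenitors as they leave the radial glial state, act on Dlx5 and Dlx6, and direct GABAergic fate. The cortex next to it makes glutamatergic neurons from progenitors that use Emx2, Neurog2 and Eomes instead, so Dlx-positive cells found in dissected cortex are usually taken as migrating interneurons or as GE tissue dissected along with it.

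The study asked what Syncrip, an RNA-binding protein of the hnRNP family, does in cortical progenitors. The cKO library came from an embryo of genotype Syncrip fl/fl with Emx1-Cre, in which loxP sites flank a stretch of early exons of Syncrip and Cre is driven by Emx1, a gene of dorsal progenitors and their progeny; the other embryo is labelled WT, with no allele named. Each library held 1 embryo of the C57BL/6 strain, both from the same pregnant female. With 1 embryo a genotype no test between genotypes was possible, and every interval given here is an exact 95% interval that covers counting error only, because cells of a library share an embryo.

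The embryos also differed in sex. The WT members held 0 UMIs of Xist and 142 of the Y-linked Uty, and the cKO members held 2688 and 0, so genotype, sex and embryo cannot be told apart in any comparison of the libraries. Syncrip itself checks nothing about the deletion, since the libraries tag the 3′ end of the message and the removed exons lie near its start. Its level was 351 counts per 1000000 UMIs (CPM) in WT members and 299 in cKO members, 308 and 304 in cycling cells without Dlx, and 293 and 248 in Dlx-positive cells without Top2a or Mki67. The members have few dorsal transcripts, as described below, and whether Cre had acted in them was not measured.

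Members were deep cells. They held 1830788 UMIs in WT and 2092287 in cKO, with a median per cell of 14610 (range 2349 to 47415) and 14959 (2780 to 37063), against medians of 12277 and 11566 over all kept barcodes. They made up 1.56% of kept WT barcodes (1.29 to 1.87) and 1.51% of kept cKO barcodes (1.27 to 1.79), so the shares in the 2 libraries lay within each other's intervals. Taken over the barcodes with at least 3 Dlx UMIs, 1038 in WT and 1498 in cKO, the members were 11.4% (9.50 to 13.5) and 8.88% (7.49 to 10.4). These intervals overlapped, but neither share lay within the other's interval.

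The values that chose the members are a description of the rule. The median member had 32 Dlx UMIs in WT and 30 in cKO, and 23 and 21 of Top2a and Mki67. Dlx1 stood at 561 CPM in WT and 438 in cKO and Dlx2 at 399 and 432, and Dlx6os1, the antisense RNA of the Dlx5 and Dlx6 locus, at 983 and 1076. Top2a, the topoisomerase that untangles chromosomes before division, stood at 1243 and 1163 CPM, and Mki67, which coats mitotic chromosomes, at 536 and 438. Few cells lay at the edges: 1 WT member and no cKO member had exactly 3 Dlx UMIs, 7 and 6 had exactly 3 mitotic UMIs, and 4 and 7 had exactly 3 Neurod2 and Neurod6 UMIs. Just outside were 7 WT and 9 cKO barcodes with 2 Dlx UMIs, which carried 337 and 375 UMIs of the radial glial gene Fabp7 but 6 and 1 of Gad2, and 15 and 22 barcodes with 2 mitotic UMIs, which carried 62 and 172 UMIs of Gad2.

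The label was then checked on genes the rule did not use, in 3 reference sets built from the same libraries. Cycling Dlx-negative cells, 277 in WT and 406 in cKO, had the mitotic UMIs and no Dlx or Eomes UMI, with Fabp7 and Pax6 of radial glia but also UMIs of microglial, vascular and meningeal genes. Dlx-positive cells without mitotic transcripts, 696 and 952, had the Dlx UMIs and no Top2a or Mki67, and are called non-mitotic Dlx-positive cells. The other cells were all kept barcodes outside the members, 7436 and 8648. A gene counted as higher or lower when its ratio was at least 1.5-fold in the same direction in both libraries, among genes with at least 50 UMIs in either set, the genes of the rule left out. By this limit 11.4% of 17119 genes were higher in members than in other cells and 23.5% lower, 9.67% and 17.5% of 11125 against cycling Dlx-negative cells, and 14.47% and 20.6% of 11373 against non-mitotic Dlx-positive cells. A gene that passed it through 1 set alone could hardly be called except as higher in that set, so the counts of lists are over genes with at least 50 UMIs in both sets, a choice made after the values were seen. No test stands behind such a count, because a set of cells from 1 embryo is 1 sample.

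**Figure D1:**
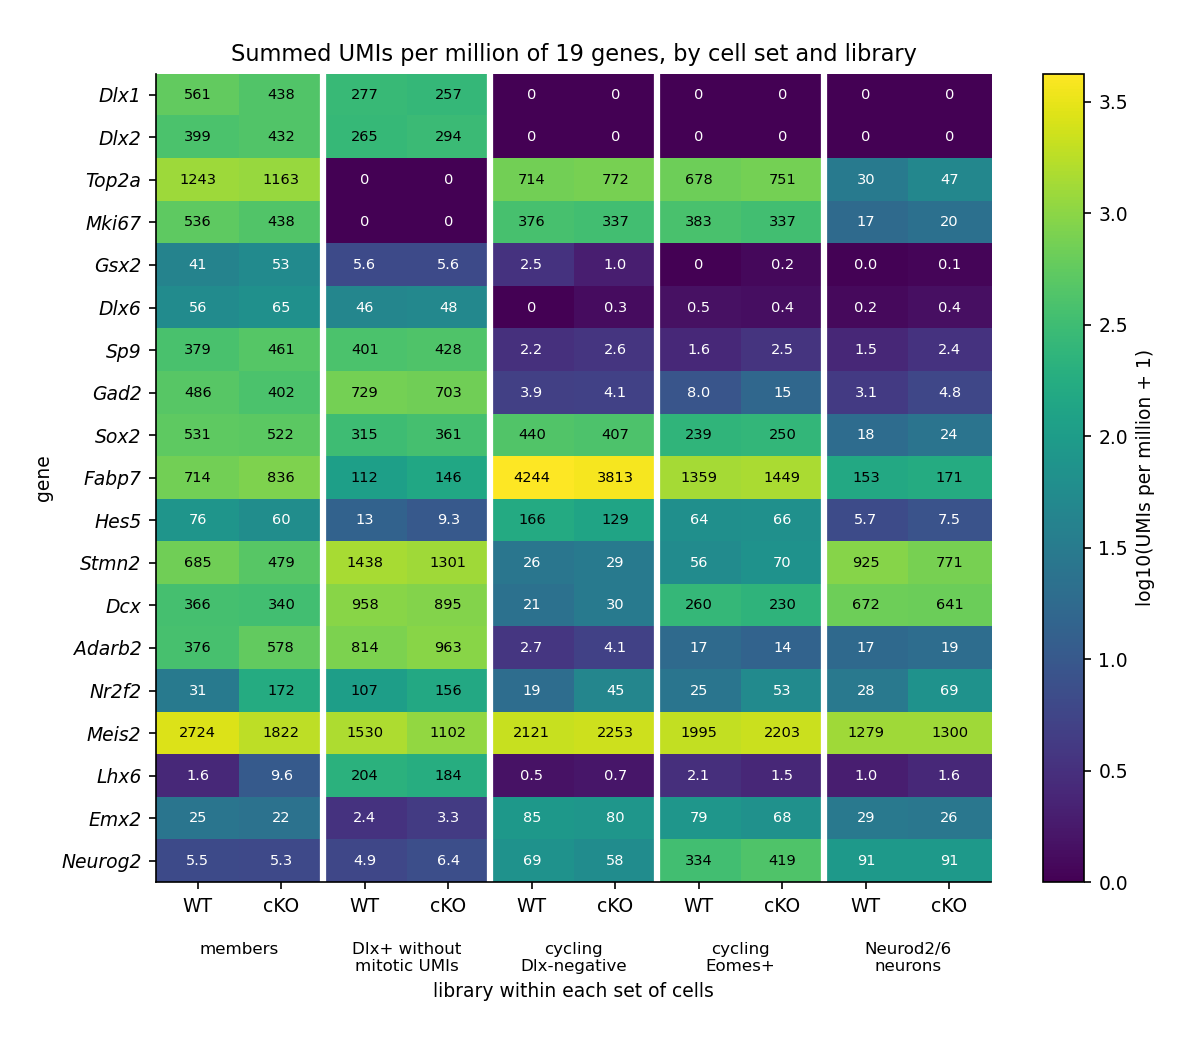
Summed CPM of 19 genes (rows) in 5 sets of cells, each in the WT and the cKO library (columns), with the value in each cell and its colour on a log10 scale. Members hold both Top2a (1243 and 1163) and Gad2 (486 and 402), whereas cycling Dlx-negative cells hold Gad2 at 3.9 and 4.1; Dlx1, Dlx2, Top2a and Mki67 were used to choose the sets, so their 0 values follow from the rule.

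The members carried the transcripts of GE progenitors. Gsx2, which specifies the LGE and CGE ventricular zone, was at 41.0 and 52.6 CPM in members and at most 5.60 in non-mitotic Dlx-positive and in cycling Dlx-negative cells. It was seen in 38 of 118 WT and 52 of 133 cKO members. Olig2, a basic helix-loop-helix factor of ventral progenitors, had 69 and 65 UMIs in members, or 37.7 and 31.1 CPM. Of 7 GE ventricular zone genes with enough UMIs, 6 were higher in members than in other cells and 1, the cortical selector Lhx2, was lower, where 14.8% of all 8389 genes were higher and 8.92% lower. Against cycling Dlx-negative cells 1 of 3 was higher and 2 (Lhx2 and Nr2e1) were lower, beside 11.0% and 9.30% of all genes. A further 4 passed through the members alone. Against non-mitotic Dlx-positive cells 4 of 5 were higher and 0 lower, beside 16.1% and 12.7% of all genes.

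Genes of the next step of the lineage were present in the members as a set. Sp9, a zinc finger factor of the GE subventricular zone, was at 379 CPM in WT members and 461 in cKO members, close to the 401 and 428 of non-mitotic Dlx-positive cells, and at 2.20 and 2.63 in cycling Dlx-negative cells. Gad2, which makes GABA from glutamate, was at 486 and 402 CPM, below the 729 and 703 of non-mitotic Dlx-positive cells, and Gad1 was at 83.6 and 108 against 291 and 292. Of 6 genes of GABAergic fate with enough UMIs in both sets, 5 were higher in members than in cycling Dlx-negative cells and 0 lower, beside 11.0% higher and 9.30% lower of all 8244 genes; 6 more passed through the members alone. Against non-mitotic Dlx-positive cells the same list was split, with 4 of 12 higher (Sp8, Etv1, Tiam2 and Abracl) and 5 lower, among them Gad1, Gad2 and the vesicular GABA transporter Slc32a1, beside 16.1% higher and 12.7% lower of all 8140 genes.

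The largest ratios over other cells mixed lineage and division genes. The vesicular monoamine transporter Slc18a2 led, at 97.8 CPM in WT members and 41.1 in cKO members, 22.0-fold over other cells by the geometric mean of the libraries, followed by Stk33 at 20.9-fold. Six3, a homeobox gene of the ventral forebrain, was 14.0-fold higher and Dlx6 12.8-fold. The rest of the 15 genes held division genes such as the helicase Pif1 at 15.9-fold and the kinesin Kif14 at 13.3-fold.

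Against cycling Dlx-negative cells, Sp9 was 173-fold higher, Nrxn3 159-fold, the potassium channel gene Kcnh8 147-fold, Adarb2 140-fold, Stk33 115-fold, Gad2 110-fold, Six3 87.8-fold and Arl4d 80.1-fold. Nrxn3, a presynaptic adhesion gene, reached 6037 CPM in WT members and 6490 in cKO members against 40.4 and 38.3. Dlx6 had 0 UMIs in the WT reference, so its fold there was at least 75.9, with 3 UMIs taken as the floor of a count of 0. The 10 genes lowest in members included C1qa, Col3a1, Flt1 and Abcc9, which belong to microglia, fibroblasts, endothelium and pericytes, so the reference was narrowed, after its values were seen, to 241 and 364 cells with at least 3 UMIs of Pax6 and Fabp7 and fewer than 3 of those other types. Against this narrower set 1124 genes were higher and 1609 lower of 10571, of which 1021 and 1508 were also called with the wider set. Among the genes lowest in members were then Emx1 and Neurog2. Emx1 had 5 UMIs in WT members and 1 in cKO members, against 119 and 128 in this narrower set. Neurog2 was 14.0-fold lower in WT and 12.2-fold in cKO, on 10 and 11 member UMIs.

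Dorsal transcripts were few in members. Neurog2 was at 5.46 CPM in WT members and 5.26 in cKO members, against 137 and 158 in other cells and 69.2 and 57.9 in cycling Dlx-negative cells. Emx2 was an exception against other cells, at 25.1 and 22.5 CPM in members and 37.6 and 37.2 there, short of the 1.5-fold limit in WT, but it was at 85.3 and 80.5 in cycling Dlx-negative cells. The 15 genes of the dorsal pallium list summed to 218 UMIs in WT and 188 in cKO, or 119 and 89.9 CPM, against 1378 and 1247 CPM in other cells, 398 and 373 in cycling Dlx-negative cells, and 59.6 and 69.1 in non-mitotic Dlx-positive cells, which is below the members. As 13 of the 15 had under 50 UMIs in members, no count is given. Eomes is absent and Neurod2 and Neurod6 are capped by the rule, so they add nothing here. The other cells include cells with Eomes and neurons beyond that cap, so the gap to them in dorsal genes follows in part from the rule. Cycling Dlx-negative and non-mitotic Dlx-positive cells were under the same limits as members.

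Markers of microglia, endothelium, pericytes and meningeal fibroblasts were near 0. The microglia list summed to 26 UMIs in WT members and 23 in cKO members, with P2ry12 the most abundant and C1qa and Csf1r at 0. The endothelial list summed to 8 and 6, the pericyte list to 7 and 13 and the meningeal fibroblast list to 4 and 14. Haemoglobin and other red blood cell genes summed to more, 125 and 174 UMIs, or 68.3 and 83.2 CPM against 498 and 668 in other cells. Cajal-Retzius genes summed to 65 and 37 UMIs.

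Division genes differed between the members and their non-mitotic relatives, which follows from how the sets were chosen. Members had to hold Top2a or Mki67 UMIs and that set had none, so higher division genes than there are a description of the selection. Cdk1, the kinase that drives entry into mitosis, was at 316 CPM in WT members and 383 in cKO members, against 3.43 and 5.04. Ube2c, which tags mitotic cyclins for destruction, was at 1035 and 1101 against 14.8 and 19.5. Besides Top2a and Mki67, 31 of 32 G2/M genes with enough UMIs in both sets were higher than in non-mitotic Dlx-positive cells, as were 34 of 35 S-phase genes, beside 16.1% of all genes. Against cycling Dlx-negative cells 1 of 41 S-phase genes was higher and 1 lower, and 7 of 52 G2/M genes (13.5%) were higher and none lower, beside 11.0% and 9.30% of all genes. Among the largest single ratios against non-mitotic Dlx-positive cells were the histone gene Hist1h2af at 256-fold, the kinesin Kif18b at 200-fold, the cohesin acetyltransferase Esco2 at 192-fold and the kinetochore gene Ndc80 at 153-fold. That set held only 10, 6, 11 and 13 UMIs of them, so they passed the limit through the members alone and their folds are rough.

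Since these genes move together, the sequence just before their start sites is shown for the 2 division genes of the rule and for Cdk1, beside those of Sp9 and Adarb2 as lineage genes. Each is 150 bases 5′ to 3′ from RefSeq on GRCm38.p6, in lower case, with capitals for 3 motifs searched on both strands. The letters CCAAT are the box bound by the factor NF-Y. The letters TTTGAA are the core of the cell cycle genes homology region (CHR), known like the box from mitotic promoters. The letters TAATTA, their own reverse complement, are a homeodomain core that Dlx and many other proteins of the family bind. Matches of 2 different motifs can share at most 1 letter. The windows are chr11:99024190-99024339 on the minus strand for Top2a, chr7:135716380-135716529 minus for Mki67, chr10:69352913-69353062 minus for Cdk1, chr2:73271776-73271925 plus for Sp9 and chr13:8202716-8202865 plus for Adarb2.
Top2a: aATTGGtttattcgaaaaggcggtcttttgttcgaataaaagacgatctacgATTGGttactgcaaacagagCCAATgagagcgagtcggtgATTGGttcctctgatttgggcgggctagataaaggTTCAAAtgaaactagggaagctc
Mki67: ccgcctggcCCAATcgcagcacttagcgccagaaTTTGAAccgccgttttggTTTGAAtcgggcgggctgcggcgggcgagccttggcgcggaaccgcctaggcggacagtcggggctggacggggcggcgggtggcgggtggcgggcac
Cdk1: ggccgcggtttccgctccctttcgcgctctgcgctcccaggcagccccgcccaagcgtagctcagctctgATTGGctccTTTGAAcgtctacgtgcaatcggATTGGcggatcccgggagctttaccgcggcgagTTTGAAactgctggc
Sp9: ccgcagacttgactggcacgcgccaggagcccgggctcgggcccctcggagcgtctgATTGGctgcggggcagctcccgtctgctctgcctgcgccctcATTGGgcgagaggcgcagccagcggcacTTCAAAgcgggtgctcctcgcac
Adarb2: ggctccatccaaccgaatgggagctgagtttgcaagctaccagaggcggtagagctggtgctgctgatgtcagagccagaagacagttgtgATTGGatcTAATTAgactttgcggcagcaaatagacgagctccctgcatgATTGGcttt

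The Top2a window holds 4 CCAAT boxes and 1 CHR core, Mki67 holds 1 and 2, and Cdk1 holds 2 of each. Sp9 holds 2 boxes and 1 CHR core, and Adarb2 holds 2 boxes, no CHR core and 1 homeodomain core. Of the 54 G2/M genes 47 were matched by symbol to 52 promoter entries, and 71.2% of these held the CCAAT box and 32.7% the CHR core, against 24.5% and 9.07% of all 32851 entries. For the S-phase list the shares were 60.0% and 11.4% of 35 entries, for the neuron differentiation list 29.6% and 0% of 27, and for the GABAergic fate list 22.2% and 16.7% of 18. The homeodomain core was in 2.73% of all entries, in 7.41% of those of the neuron differentiation list and in none of the GABAergic fate, G2/M and S-phase lists. A match is a run of letters, not a bound site or a cause. Dlx5 and Dlx6 were not matched.

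Cell cycle phases were called from the same lists after every cell was thinned to 5000 UMIs, which left out 3 WT and 4 cKO members. In WT 22.6% of 115 members were called S phase (15.3 to 31.3) and 77.4% G2/M (68.7 to 84.7), and in cKO 17.8% of 129 (11.7 to 25.5) and 81.4% (73.6 to 87.7). The unthinned calls were 24.6% and 74.6% in WT and 21.1% and 77.4% in cKO. Cycling Dlx-negative cells were called S phase in 23.6% and 29.0%. Top2a and Mki67, which the rule requires, are themselves G2/M genes, so the low share in G1 follows from the rule.

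The members also held neuronal transcripts. Of 21 genes of neuron differentiation, 19 were higher in members than in cycling Dlx-negative cells and 0 lower, beside 11.0% and 9.30% of all genes, and against non-mitotic Dlx-positive cells 16 of 22 were lower and 0 higher, beside 12.7% and 16.1%. Stmn2, a regulator of microtubules in growing axons, was at 685 CPM in WT members and 479 in cKO members, between the 26 and 29 of cycling Dlx-negative cells and the 1438 and 1301 of non-mitotic Dlx-positive cells. Dcx, the microtubule protein of migrating neurons, lay between as well, at 366 and 340 CPM.

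The radial glial genes Fabp7 and Hes5 lay between in the opposite order, while Sox2 was above both other sets. Of 20 genes of the list, 17 were lower in members than in cycling Dlx-negative cells and 0 higher, beside 9.30% and 11.0% of all genes, whereas 17 of 18 were higher than in non-mitotic Dlx-positive cells and 0 lower, beside 16.1% and 12.7%. Fabp7, the lipid-binding protein of radial glia, was at 714 and 836 CPM in members, against 4244 and 3813 in cycling Dlx-negative cells and 112 and 146 in non-mitotic Dlx-positive cells. These sums rested on few cells: the median was 1 Fabp7 UMI per WT member and 2 per cKO member, and a single member held 565 of the 1308 in WT and 277 of the 1750 in cKO. Hes5, a Notch effector, was at 75.9 and 59.7 against 166 and 129, and 13.0 and 9.27. Sox2, the factor of neural stem cells, was 531 and 522 CPM in members, 440 and 407 in cycling Dlx-negative cells and 315 and 361 in non-mitotic Dlx-positive cells.

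Notch genes differed in both directions. The ligands Dll1 and Dll3 and the Hes6 gene, whose product opposes Hes1, were higher in members than in both other sets: Dll1 was at 51.3 and 44.9 CPM against 5.38 and 5.43 in cycling Dlx-negative cells and 19.0 and 16.2 in non-mitotic Dlx-positive cells. The effector Hes1 went the other way against cycling Dlx-negative cells, at 16.4 and 31.1 CPM in members and 183 and 229 in that set. The receptors Notch2 and Notch3 were lower than in cycling Dlx-negative cells as well. Over the list, 3 of 11 genes were higher and 4 lower than in cycling Dlx-negative cells (11.0% and 9.30% of all genes), and 7 of 10 higher and 0 lower than in non-mitotic Dlx-positive cells (16.1% and 12.7%).

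Genes of cell cycle exit and G1 were present as well. Gadd45g, a growth arrest gene that follows proneural factors, was at 436 CPM in WT members and 433 in cKO members, against 88.3 and 86.1 in non-mitotic Dlx-positive cells and 39.1 and 35.4 in cycling Dlx-negative cells. Ccnd2, a D-type cyclin of basal progenitors, was at 3245 and 2481 CPM against 526 and 346, and 781 and 905. Ccnd1, the D-type cyclin of apical cells, was at 49.2 and 61.7 against 6.50 and 10.1, and 76.5 and 63.8. All 6 G1 genes with enough UMIs in both sets were higher than in non-mitotic Dlx-positive cells, where the exit list had 4 of 8 higher and 2 lower (Cdkn1c and Trp53inp1), beside 16.1% higher and 12.7% lower of all genes. Against cycling Dlx-negative cells, 1 of 7 G1 genes was higher (Ccnd2) and 2 lower (Ccnd3 and Cdk6), and 4 of 9 exit genes were higher and 1 lower (Rprm), beside 11.0% and 9.30% of all genes.

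Among themselves, members ranged from radial-glia-like to neuron-like content. At 5000 UMIs per cell, the radial glia list summed to a median of 12 UMIs (3 to 160) in WT and 14 (3 to 137) in cKO, and the neuron differentiation list to 84 (9 to 220) and 80 (12 to 269). Across members the 2 sums went opposite ways, with Spearman's rho of −0.47 over 115 WT cells and −0.56 over 129 cKO cells and Pearson's r of −0.36 and −0.42; cells share a library and the same 5000 UMIs, so this describes these cells only. Neuron differentiation sums also went with GABAergic genes (rho 0.59 and 0.69). A total of 8 WT members and 17 cKO members had 40 or more radial glia UMIs, a limit set after the values were seen, and these 6.96% and 13.2% of members held 30.3% and 40.3% of the radial glia UMIs.

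**Figure D2:**
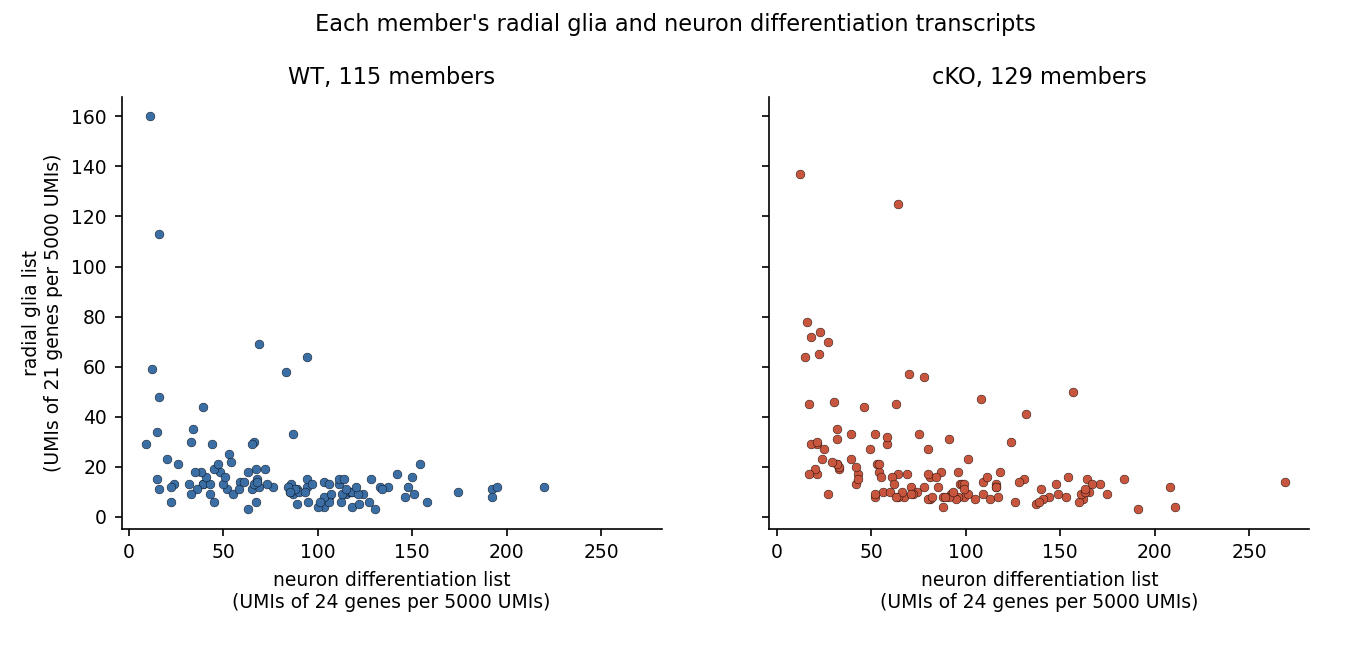
Each point is 1 member, with the UMIs of 24 neuron differentiation genes (x axis) and 21 radial glia genes (y axis) per 5000 UMIs, in WT (blue, 115 members) and cKO (red, 129). Members with 40 or more radial glia UMIs, 8 in WT and 17 in cKO, had lower medians of neuron differentiation UMIs (27.5 and 30, against 86 in the rest of both libraries), though some of them lie well to the right.

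A split by Adarb2, an RNA-editing family gene that marks CGE interneurons, divided the members further, by a gene that the rule did not use. Members with an Adarb2 UMI, 69 in WT and 83 in cKO, had more Sp8 (log2 2.07 and 2.54), Stmn2 (1.69 and 1.98) and Nrxn3 (1.64 and 1.56) than the 49 and 50 members without. Their ratios were below 0 for Hes5 (−2.01 and −2.45), Ccnd1 (−1.87 and −2.51) and Fabp7 (−1.67 and −1.74). Single cells set part of these sizes: without each library's highest cell for the gene, Fabp7 was at −0.35 in WT and −1.39 in cKO, Hes5 at −1.17 and −2.13, and Ccnd1 at −3.17 and −2.27. Other progenitor genes did not follow: Sox2 was at 0.31 and 0.14, Pax6 at 0.51 and 0.28, Vim at −0.03 and −0.11, and Hes1 at −2.21 in WT and 0.35 in cKO.

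Nkx2-1, Lhx6 and Lhx8 of the MGE were near 0 in members. Nkx2-1, which specifies the MGE, and Lhx8 had 0 UMIs in both libraries, a level below 1.64 CPM in WT and 1.43 in cKO at 3 counts. Lhx6, a target of Nkx2-1 in migrating MGE interneurons, had 3 UMIs in WT members and 20 in cKO members (2 and 13 of these in barcodes marked as doublets), 1.64 and 9.56 CPM, against 204 and 184 CPM in non-mitotic Dlx-positive cells. The 4 MGE genes with enough UMIs in both sets, Sox6 among them, were lower in members than in non-mitotic Dlx-positive cells, beside 12.7% of all genes lower and 16.1% higher. Of the CGE list 1 of 5 genes was lower and 1 higher, and of the LGE and striatum list 3 of 9 were lower and 3 higher. Sst, a peptide of MGE interneurons, had 0 UMIs in WT and 32 in cKO members, 27 of these in 1 barcode marked as a doublet, against 404 and 556 CPM in non-mitotic Dlx-positive cells. Sox6 was an MGE gene that members did carry, at 247 and 293 CPM, but cycling Dlx-negative cells had it at 748 and 717.

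Meis2, a homeobox gene broad in the LGE and CGE, had 4987 UMIs in WT and 3813 in cKO, and a UMI in 100% of WT and 96.9% of cKO members at 5000 UMIs. It was not particular to them: its level was 2724 and 1822 CPM in members, 2121 and 2253 in cycling Dlx-negative cells and 1995 and 2203 in cycling cells with Eomes. Under the same thinning, a UMI of Adarb2, Prox1 or Nr2f2, taken as CGE genes, was in 56.5% of WT members (47.0 to 65.7) and 80.6% of cKO members (72.7 to 87.0). In cycling Dlx-negative cells the share was 11.0% and 10.7%, and without thinning the members stood at 72.9% and 89.5%. Without thinning, Nr2f2 was in 32 of 277 WT and 71 of 406 cKO cycling Dlx-negative cells. Adarb2 was in 10 and 25 of them and Prox1 in 13 and 7, so the share there is no background for Adarb2 and Prox1. The 3 genes were not particular to members: non-mitotic Dlx-positive cells had Adarb2 at 814 and 963 CPM, against 376 and 578 in members. Prox1 was at 28.5 and 38.3 CPM there against 39.3 and 98.9, and Nr2f2 at 107 and 156 against 30.6 and 172. Of the other CGE genes, Npas1 was in 4 WT and 2 cKO members, Cxcl14 in 3 and 2, Htr3a in 1 and 1, and Scgn in 0. A UMI of Nkx2-1, Lhx6 or Lhx8 was in 0.870% and 2.33% of members, or 1.69% and 9.02% without thinning. In non-mitotic Dlx-positive cells this thinned share was 45.7% and 46.8%.

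**Figure D3:**
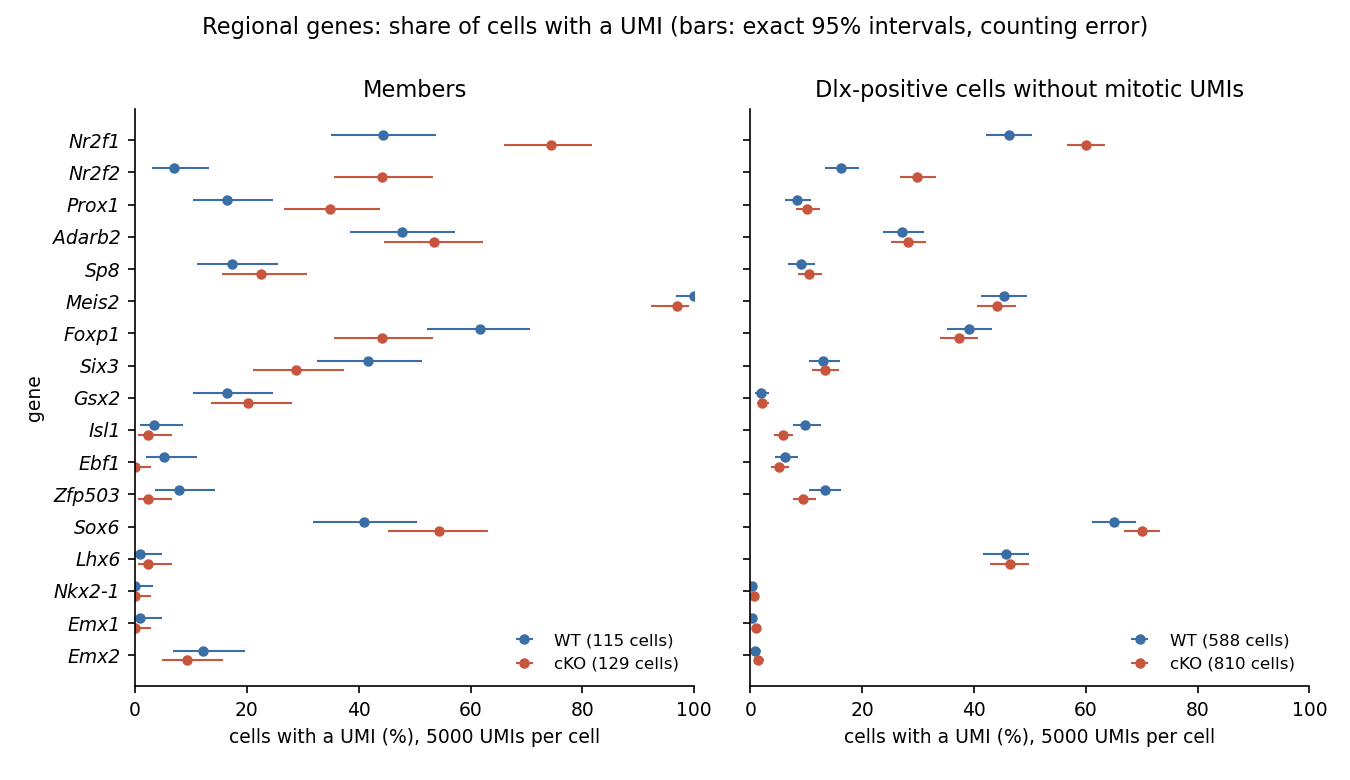
Share of cells with at least 1 UMI of each regional gene (percent, x axis) after thinning to 5000 UMIs, in members (left) and in Dlx-positive cells without mitotic UMIs (right), WT in blue and cKO in red, with exact 95% intervals of counting error. In members Lhx6 is in 0.870% and 2.33% of cells against 45.7% and 46.4% on the right, and Nr2f2 is in 6.96% of WT and 44.2% of cKO members.

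Between the libraries, 4 CGE genes were higher in cKO members. Nr2f2, an orphan nuclear receptor of the CGE also known as COUP-TFII, had 56 UMIs in 17 of 118 WT members and 360 in 82 of 133 cKO members, 30.6 against 172 CPM and a log2 ratio of 2.49 (2.08 to 2.92). The median member had 0 Nr2f2 UMIs in WT and 1 in cKO and the highest 10 and 21, so the members' ranges overlapped. Nr2f1, its relative COUP-TFI, had 241 UMIs in 85 WT members and 750 in 127 cKO members (1.45, 1.23 to 1.66), with a median of 1 and 4 per member. Prox1, a homeobox gene of CGE interneurons, had 72 in 41 and 207 in 75 members (1.33, 0.94 to 1.74). Adarb2 had 689 and 1210 (0.62, 0.48 to 0.76). These were the 4 of 5 CGE genes with enough UMIs (at least 50 over both libraries) that were past a log2 ratio of 0.5, beside 5.78% of all 8397 genes higher in cKO and 4.58% lower. The list median was 1.33, against 0.01 over all genes. The count was 4 without doublets and without members with an Emx1 or Emx2 UMI, and 3 without each gene's highest cell in each library: 1 cKO member held 349 of the 1210 Adarb2 UMIs, and Adarb2 was then at 0.31.

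Of the LGE and striatum list, 4 of the 9 genes with enough UMIs were lower in cKO members, beside 4.58% of all 8397 genes lower and 5.78% higher. Meis2, with a median of 34 UMIs per WT member and 21 per cKO member, had a log2 ratio of −0.58 (−0.64 to −0.52), and Six3, seen in 65 and 57 members, one of −0.88 (−1.10 to −0.67). Isl1, a LIM factor of striatal neurons, had 64 UMIs in 9 WT members and 25 in 5 cKO members (−1.55, −2.28 to −0.86), and Zfp503, a striatal zinc finger gene, 64 in 17 and 12 in 4 members (−2.61, −3.63 to −1.70). None of the 9 was past the limit upward, though the interval of Pax6 (0.36, 0.07 to 0.66) lay above 0, and the list median was −0.44. Isl1 rested on few cells, with 22 WT and 18 cKO UMIs in 1 member each, and its ratio was −2.78 without these and −4.31 without members with an Emx1 or Emx2 UMI, whereas Meis2 was in 118 of 118 and 132 of 133 members. Ebf1, a factor of striatal projection neurons below the limit of 50 UMIs, had 39 UMIs in 8 WT members, 20 of them in 1 cell, and 4 in 4 cKO members.

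Some of these genes differed between the libraries outside the members too, and others did not or went the other way. Nr2f2 had a log2 ratio of 0.55 (0.40 to 0.69) in non-mitotic Dlx-positive cells, 1.25 (0.88 to 1.63) in cycling Dlx-negative cells and 1.27 in cells with at least 10 UMIs of Neurod2 and Neurod6. The cycling Dlx-negative cells held more endothelial UMIs in cKO (34.2 CPM in WT, 377 in cKO) and more of red blood cell genes (79.5 and 2423), and in the narrower reference described above Nr2f2 was at 1.52 (0.98 to 2.08). Nr2f1 was at 0.53 and 0.49 in the first 2 of these sets. Prox1 was at 0.42 (0.14 to 0.71) in non-mitotic Dlx-positive cells and at −1.85 in cycling Dlx-negative cells, where it had 17 and 7 UMIs. In non-mitotic Dlx-positive cells Isl1 was at −0.90, Zfp503 at −0.82, Ebf1 at −0.56 and Meis2 at −0.47, while Six3 was at −0.05 (−0.20 to 0.09). In cycling Dlx-negative cells Meis2 was at 0.09, Zfp503 at 1.84 on 3 and 16 UMIs, and Ebf1 at 1.46 on 108 and 442 UMIs, of which the narrower reference kept 9 and 8. Six3 was lower in cKO in cycling Dlx-negative cells too, at −2.16 (−3.78 to −0.76) on 18 and 6 UMIs. In the narrower reference it was at −1.42 (−3.35 to 0.31). Within the members, the Nr2f2 ratio was 2.03 among those with an Adarb2 UMI and 3.67 among those without. How much LGE and CGE each dissection held cannot be told apart from genotype and sex here.

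**Figure D4:**
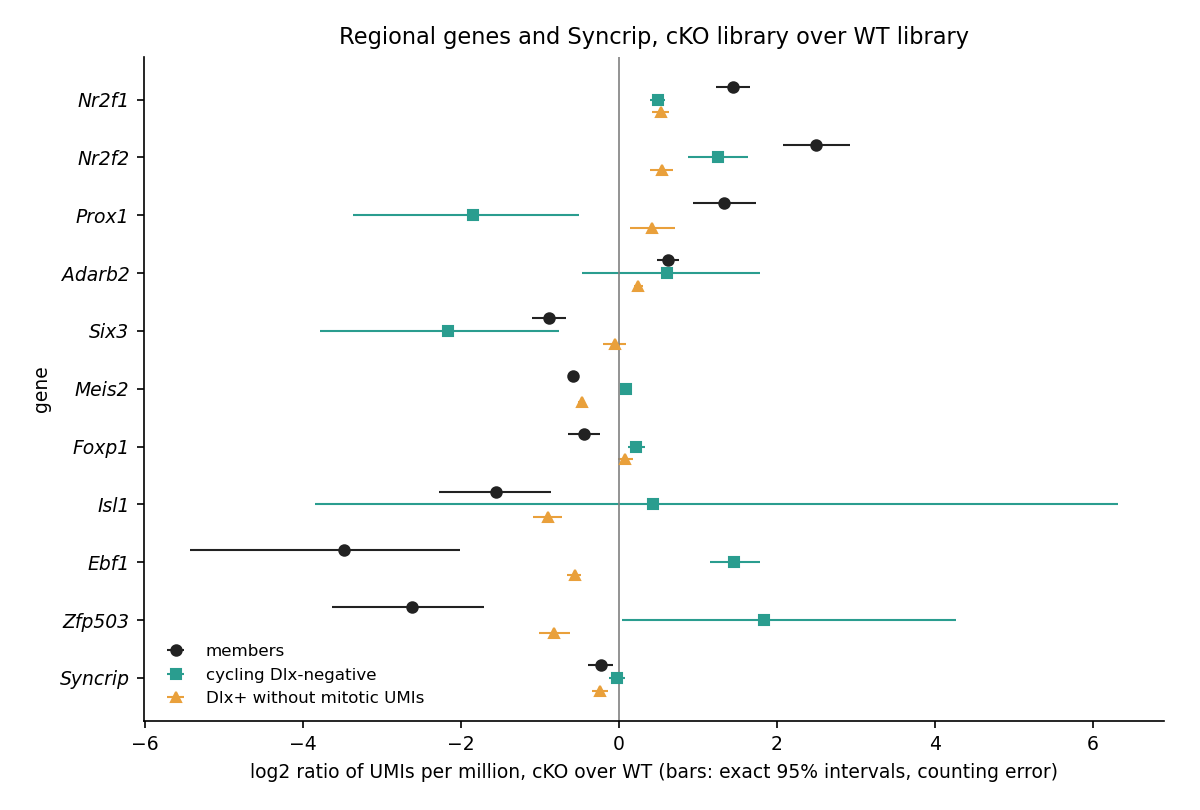
Log2 ratio of CPM in the cKO over the WT library (x axis) for 11 genes, in members (black circles), cycling Dlx-negative cells (green squares) and Dlx-positive cells without mitotic UMIs (orange triangles), with exact 95% intervals of counting error. In members Nr2f2 (2.49), Nr2f1 (1.45) and Prox1 (1.33) lie right of 0 and Isl1 (−1.55), Zfp503 (−2.61) and Ebf1 (−3.48) left of it, while Syncrip is at −0.23.

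Genes of division and of the GE lineage itself were mostly within the limit. None of 41 S-phase genes, of 52 G2/M genes outside the rule or of 12 GABAergic fate genes was past a log2 ratio of 0.5, and of 7 GE ventricular zone genes the only one was Six3. Over all genes 5.78% were past it upward and 4.58% downward. Gsx2 was at 0.36 (−0.08 to 0.80). As a description of genes the rule used, Dlx2 was at 0.12 (−0.03 to 0.26), Dlx1 at −0.36 (−0.49 to −0.23) and Mki67 at −0.29 (−0.42 to −0.16). Of 8 rule genes with enough UMIs, 1 was past the limit: Neurod2, which the rule caps, was higher in cKO. Syncrip was at −0.23 (−0.39 to −0.07), as it was at −0.24 in non-mitotic Dlx-positive cells, and its paralogue Hnrnpr at −0.08. Counted by whether the interval left 0, 6.99% of all genes were higher in cKO and 6.88% lower. By this count 4 of 54 G2/M genes, Top2a and Mki67 included, were higher and 10 lower. The S-phase list had 3 of 41 higher and 5 lower, the GABAergic fate list 4 of 12 and 2, and the GE ventricular zone list 1 of 7 and 1.

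Of the other lists, the radial glia list had 4 of 20 genes higher in cKO members and none lower, beside 5.78% and 4.58% of all genes. They were Hes1 (30 and 65 UMIs, log2 0.92), the endothelin receptor Ednrb (57 and 108, 0.73), the metallothionein Mt1 (16 and 44, 1.27) and Veph1 (32 and 61, 0.74). In the other cells these genes, in this order, were at 0.58, 0.49, 0.53 and 0.29. In cycling Dlx-negative cells they were at 0.33, −0.12, −0.02 and −0.20. More cKO than WT members were marked as doublets (11 and 4) and had 40 or more radial glia UMIs (17 and 8). Without doublets the 4 ratios in members were 0.97, 0.58, 1.12 and 0.71, with Hes1 on 16 and 34 UMIs and Mt1 on 11 and 26. Without members with an Emx1 or Emx2 UMI they moved to 2.08 (4 and 21 UMIs), 0.99 (22 and 54), 1.76 (5 and 21) and 2.63 (6 and 46). Of 22 neuron differentiation genes, 3 were higher (Erbb4, Syt1 and Ina) and 2 lower (Stmn2 and Nrp1). Erbb4, the neuregulin receptor of migrating interneurons, had 653 and 1432 UMIs and a log2 ratio of 0.94 (0.81 to 1.08), and Stmn2 1254 and 1002 (−0.52, −0.64 to −0.40).

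Outside the lists, the largest ratios rested partly on few cells. Sorcs1, a sorting receptor, had 27 UMIs in 10 WT members and 125 in 17 cKO members (log2 2.02, 1.41 to 2.68), but 94 of the cKO UMIs were in the 11 barcodes called as doublets, and without doublets the ratio was 0.59. St18, a zinc finger factor of GE-derived neurons, had 99 and 302 UMIs (1.42), in 31 WT and 63 cKO members, and stayed between 1.19 and 1.43 over the alternatives. Cntnap4, an interneuron adhesion gene, had 33 and 105 UMIs (1.48). Lower in cKO were Opcml (−1.70), Foxp4 (−1.43), Pou3f1 (−1.43), Tshz2 (−1.41) and Efna5 (−1.38). One WT cell held 117 of the 290 Tshz2 UMIs, and without each library's highest cell the ratio was −0.95. One WT cell held 26 of the 77 Opcml UMIs, and 25 of the 113 WT and 25 of the 48 cKO Pou3f1 UMIs were in 1 cell each, without which its ratio was −2.13.

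Likely doublets, droplets with 2 cells, were marked with Scrublet and kept. It marked 4 of 118 WT members (3.39%, 0.931 to 8.45) and 11 of 133 cKO members (8.27%, 4.20 to 14.3), against 3.11% and 4.23% of kept barcodes, 0 of 277 and 4 of 406 cycling Dlx-negative cells and 5 of 696 and 7 of 952 non-mitotic Dlx-positive cells. The median Scrublet score was higher in members, at 0.0613 in WT and 0.0529 in cKO, against 0.0314 and 0.0281 over kept barcodes. Unmarked doublets among the members are therefore possible. The marked members had a median of 16 and 17 Dlx UMIs against 33 and 31 in the rest, Fabp7 at 2825 and 2643 CPM against 607 and 641, and Sp9 at 203 and 147 against 387 and 495. All 4 in WT and 6 of 11 in cKO had a UMI of Emx1 or Emx2. Over all members, 29 in WT and 27 in cKO had such a UMI, with median UMIs of 19353 against 13908 and 17962 against 14596 in the others. Their Fabp7 was higher by 3.67 in WT and 0.74 in cKO on the log2 scale (2.77 and 1.13 without each library's highest cell), and their Sp9 ratio was −1.15 and −1.25. The libraries shared 22 barcode sequences, none of them a member's.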

How the data were processed

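Single-cell suspensions from E14.5 dorsal telencephalon gave 2 droplet libraries of 3′ tags. The authors deposited counts of UMIs per gene and barcode, raw and filtered to cells, written by Cell Ranger 7.0.0 per the file headers, with 8289 WT and 9659 cKO barcodes, 32285 genes, and 100172392 and 111313526 UMIs. The submitters' processing notes name mm10; an annotation is not given in the sources used here. Bulk RNA-seq and LACE-seq samples of the series were not used here.

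Members, reference sets and gene lists were chosen with earlier results of these data known. Counts were summed over the cells of a set in each library and scaled to 1000000 UMIs; log2 ratios carry exact conditional 95% intervals, levels Poisson and shares Clopper-Pearson ones, and a bound on the fold of a gene at 0 takes 3 UMIs for it. No library had a replicate, so nothing was tested between genotypes. Genes needed 50 UMIs in either set compared (in both for counts of lists). For cKO over WT they needed 50 UMIs in the members of both libraries together. A call was a ratio of 1.5 in both libraries, or a log2 ratio of 0.5 for cKO over WT. Phases, list sums of single members and, unless stated, percentages of cells with a UMI of regional genes were computed at 5000 UMIs per cell. These were drawn without replacement (seed 1). Other shares, counts and sums used all UMIs. Phases were called with Seurat's S and G2/M lists in scanpy 1.11.5. Doublets were marked by Scrublet at an expected rate of 6%. Named genes were those of the rule, of lists of 12 or fewer genes, those with most UMIs of longer lists, and the largest ratios in each comparison (at least 200 UMIs, or 100 for cKO over WT). Some genes of the lists are counted but not reported by name here. Alternatives left out doublets, members with Emx1 or Emx2 and single cells, and moved the limits. The ratio step was checked on simulated counts. Python 3.11.15, numpy 2.4.6, scipy 1.17.1, pandas 2.3.3 and matplotlib 3.10.9 were used.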

Additional observations from a re-analysis of the deposited data

Results flagged for a closer look

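In 3 genes of the lists or of the largest cKO ratios, with at least 50 UMIs in each set of cells and log2 ratios past 0.5 in both, the cKO library was lower than WT in the members and higher than WT in cycling Dlx-negative cells, with both intervals clear of 0. Nrp1, a semaphorin and VEGF receptor, had a log2 ratio of −0.98 (−1.69 to −0.29; 50 and 29 UMIs) in members and 1.35 (0.93 to 1.78; 60 and 227 UMIs) in cycling Dlx-negative cells. Pou3f1, a POU domain factor, had −1.43 (−1.95 to −0.93; 113 and 48 UMIs) and 0.79 (0.20 to 1.42; 33 and 85 UMIs). Tshz2, a zinc finger factor, had −1.41 (−1.72 to −1.10; 290 and 125 UMIs) and 1.83 (1.33 to 2.36; 39 and 206 UMIs). In cKO, the cycling Dlx-negative cells also held more endothelial UMIs (34.2 CPM in WT, 377 in cKO), pericyte UMIs (161 and 260) and UMIs of red blood cell genes (79.5 and 2423). In the narrower reference of 241 and 364 cells with fewer than 3 UMIs of non-neural markers, Nrp1 was at 0.22 (−0.45 to 0.92), with 30 and 52 UMIs and an interval that held 0, whereas Pou3f1 was at 0.80 (0.18 to 1.44) and Tshz2 at 1.62 (0.41 to 3.04; 7 and 32 UMIs). Each set has 1 embryo a genotype, and the difference between the sets was not tested.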

How the results depend on the processing

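Of 92 alternative values of the main results, which are counts and shares, 74 stayed within the limit for the same reading and 18 moved. Of 125 alternative values of single genes, 109 stayed and 16 moved. The share of members among kept barcodes, 1.56% in WT and 1.51% in cKO, was 0.927% and 0.729% where Neurod2 and Neurod6 had to be 0, 2.10% and 2.03% among barcodes without Emx1 or Emx2, and 1.28% in WT where the rule was applied at 5000 UMIs. Genes past the limit between cKO and WT members, 485 higher and 385 lower at 50 UMIs, were 948 and 750 at 20 UMIs and 81 and 73 at 200 UMIs, where fewer genes are compared. LGE genes past the limit downward were 2 at 200 UMIs against 4. The share of WT members with a UMI of the MGE list was 71.3%, 41.7% with at least 2 UMIs and 94.1% without thinning, and of the CGE list 80.0%, 58.3% and 93.2%; in cKO the MGE list gave 78.3%, 50.4% and 93.2% and the CGE list 94.6%, 83.7% and 99.2%. Sox6 holds most UMIs of the MGE list. Without members with Emx1 or Emx2, Opcml was at −0.79 in place of −1.70. The narrower reference, the removal of each gene's highest cell and the recounts of the CGE and LGE lists were chosen after seeing the data. No paired analysis was possible because each genotype had 1 library. The depth of members limits genes under about 50 UMIs, and 1 embryo a genotype limits every comparison of the libraries.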
